A study of Caenorhabditis elegans with 21 samples.

Results

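The vacuolar H+-ATPase and lysosomal protease genes of Caenorhabditis elegans were followed in poly(A) RNA from animals lacking *hpl-2* and from the wild type. Members were taken by gene name and comprised every gene of the count table in the numbered *vha*, *cpr*, *asp*, *cpl* and *cpz* classes, plus *unc-32*, which encodes a V-ATPase subunit under an older name. This gave 35 of the 45461 genes listed, of which 20 encode V-ATPase subunits and 15 encode proteases. Of the 35 genes, 34 passed the filter on low counts, and *cpr-2* did not, with 2 counts in 1 *hpl-2*(*tm1489*) library and 0 in the other 4 libraries.

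The V-ATPase is a rotary proton pump that acidifies lysosomes and other compartments. Its peripheral V1 sector hydrolyzes ATP and its membrane-embedded V0 sector carries protons. Cathepsins are proteases that work in the acid interior of lysosomes, cysteine proteases of the cathepsin B, L and Z types in the case of CPR, CPL and CPZ proteins, and aspartyl proteases of the cathepsin D family in the case of ASP proteins. In C. elegans, both groups are known for strong expression in the intestine, and the V-ATPase also for roles in the excretory canal and the epidermis.

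HPL-2 is a homolog of heterochromatin protein 1, and *tm1489* is a deletion allele described as null. The comparison asked how its loss changes transcript levels. Whole animals of both strains were grown at 20°C, with 3 *hpl-2*(*tm1489*) libraries and 2 libraries of N2 (Bristol). The mutant is labelled as L4 and the wild type as young adult, whereas the study's methods give L4 for both, so a difference in stage and the difference in genotype cannot be told apart here. The *hpl-2* transcript itself was counted at 38.9 and 38.6 CPM (counts relative to the library total, scaled by TMM normalization) in N2 and at 26.7, 30.4 and 29.9 CPM in the mutant (log2 fold change -0.42, standard error (SE) 0.26, adjusted p = 0.192, edgeR). Reads inside and outside the deleted stretch cannot be told apart in these counts.

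Total counts ran from 66490671 to 80724052 in N2 and from 95252804 to 114718047 in *hpl-2*(*tm1489*), and the least abundant tested member averaged 4822 counts per library, so counting error was small for every tested member. A ribosomal RNA gene, *rrn-3.1*, took 0.180% and 0.255% of counts in N2 but 1.04%, 2.71% and 6.24% in the mutant libraries. Marker lists also moved with genotype. All 7 molting genes and all 6 vitellogenin genes were called lower, with median log2 fold changes of -3.38 and -2.55, and all 9 oocyte and eggshell genes were called higher, with a median of 2.77. All 4 tested body wall muscle genes and 3 of 4 pharynx genes were called lower, with medians of -3.13 and -2.04. The other listed muscle gene, *hlh-1*, had 0 counts in every library and was not tested. The summed level of the muscle genes was 5132 and 8961 CPM in N2 and between 298 and 646 CPM in the mutant. Of the other lists, 3 of 4 sperm genes and 2 of 6 neuronal genes were called lower (medians -1.08 and -0.07), and 3 of 6 germ line genes were called higher and 1 lower (median 0.77). Over all tested genes, 27.6% were called lower and 33.9% higher. The part of these lists in the members' results was not tested. Because whole animals were used, fewer cells of a type and less RNA per cell cannot be told apart.

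Most members that changed were less abundant in *hpl-2*(*tm1489*), and a few rose strongly. A gene was called changed when the Benjamini-Hochberg adjusted p of edgeR's quasi-likelihood test was under 0.1, and this was so for 61.5% of the 17498 genes tested. Of the 34 tested members, 16 were called lower (47.1%), against 27.6% of all tested genes, and 4 were called higher (11.8%), against 33.9% of all tested genes. Among the 3776 genes with at least the mean count of the lowest tested member, 26.5% were called lower and 36.5% higher. The median log2 fold change was -0.57 over the tested members and 0.16 over all tested genes. For 27 members the 2 groups of libraries did not overlap, 20 of them lower and 7 higher in the mutant. Over all tested genes, 72.0% did not overlap, 5777 genes lower and 6824 higher of 17498. The count of lower members rests in part on 1 control library, since without N2 replicate 2 the test called 7 members lower (20.6%, against 22.0% of all tested genes) and 3 higher (26.2% of all tested genes). The 9 genes that then missed the threshold on the lower side were *vha-2*, *vha-6*, *vha-8*, *vha-11*, *vha-12*, *vha-19*, *asp-1*, *asp-3* and *asp-5*, with log2 fold changes from -0.84 to -0.40 and adjusted p from 0.101 to 0.423 in edgeR, and *vha-5* missed it on the higher side. Fold changes over the whole table also moved with gene span. With genes cut into 4 equal bins from the shortest to the longest span, the median log2 fold change was 0.77, 0.42, 0.10 and -0.38, whereas the members in these bins (10, 12, 8 and 4 genes) had medians of -0.24, -0.71, -1.06 and -0.69. With the trend over span removed, 18 members were called lower and 4 higher, against 25.1% and 36.5% of all 16978 genes in that fit.

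**Figure D1:**
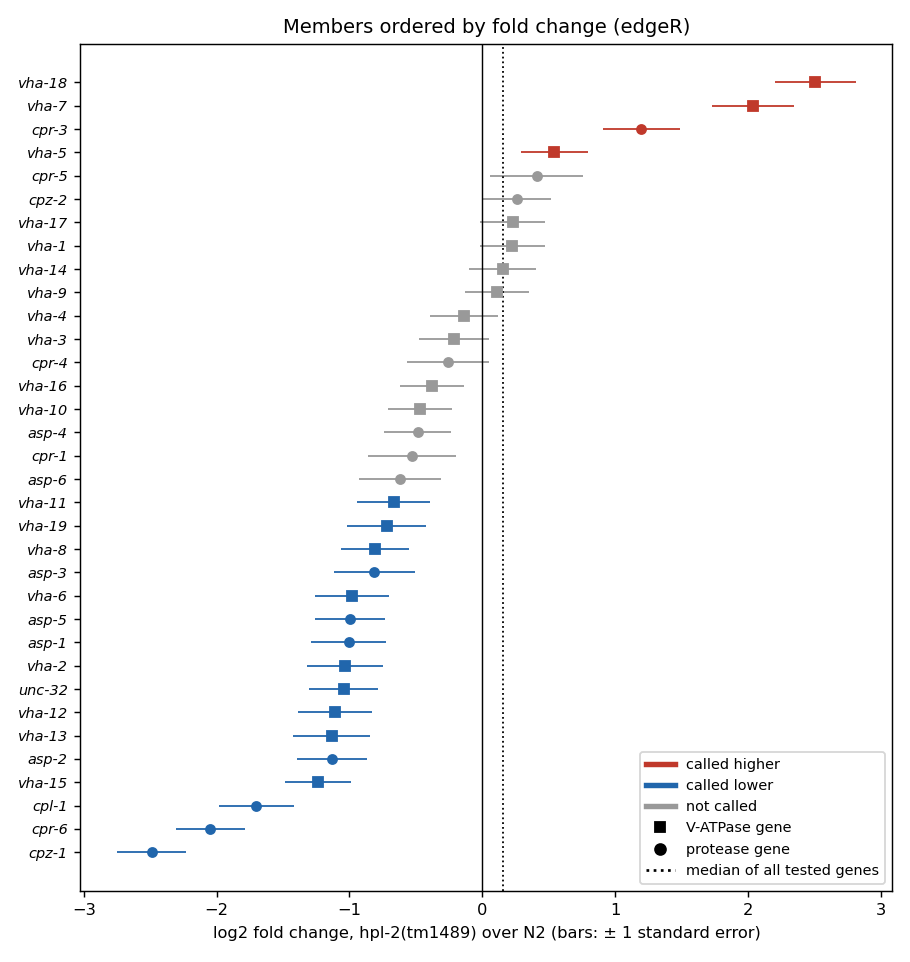
Log2 fold change of *hpl-2*(*tm1489*) over N2 (x axis, bars ± 1 standard error from edgeR) for the 34 tested members (y axis), with V-ATPase genes as squares and protease genes as circles, colored by call. *vha-18* at 2.51 and *vha-7* at 2.04 stand at the top, *cpz-1* at -2.49 and *cpr-6* at -2.05 at the bottom, and the dotted line marks the median of all tested genes at 0.16.

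The members together took a smaller share of all counts in the mutant. Such a share is scaled by the library total alone, so it also depends on the other genes counted, such as *rrn-3.1*. They held 2.40% and 2.53% of counts in N2 replicates 1 and 2, and 1.84%, 1.49% and 1.59% in the mutant replicates 1, 2 and 3. The protease share fell from 1.57% and 1.64% to between 0.833% and 1.10%. The V-ATPase share was 0.822% and 0.883% in N2 and between 0.659% and 0.744% in the mutant. For each of these shares, the highest mutant library was below the lowest N2 library.

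In the V1 sector, transcripts for both subunits of the ATP-hydrolyzing head were called lower, as were those for 1 of the 2 peripheral stalk subunits. Those for the other stalk subunit and for the central rotor shaft did not pass the test. Of the 9 V1 genes, 5 were called lower and 1 higher, against 27.6% and 33.9% of all tested genes. The median log2 fold change of the V1 genes was -0.67. *vha-13*, which encodes the catalytic A subunit, stood at 829 and 1136 CPM in N2 and at 502, 329 and 513 CPM in the mutant replicates 1, 2 and 3. *vha-12*, for the B subunit that alternates with A in the head, stood at 525 and 735 CPM in N2 and 320.3, 233 and 324 CPM in the mutant. Both genes were lower in every mutant library, by 2.19-fold for *vha-13* (log2 fold change -1.13, SE 0.29, adjusted p = 0.00866, edgeR) and by 2.15-fold for *vha-12* (-1.11, SE 0.28, adjusted p = 0.00765).
*vha-8*, which encodes the stalk subunit E, was at 726 and 938 CPM in N2 and 509, 416 and 505 CPM in the mutant (log2 fold change -0.80, SE 0.26, adjusted p = 0.0235, edgeR). *vha-11*, for subunit C, was at 361 and 499.8 CPM in N2 and 289.6, 219 and 305 CPM in the mutant, a log2 fold change of -0.67 (SE 0.27, adjusted p = 0.0636). Its call was lost in 5 of the 14 alternatives, and with the trend over gene span removed its log2 fold change was -0.069 (adjusted p = 0.818). In these genes *hpl-2*(*tm1489*) replicate 2 was the lowest library and N2 replicate 2 the highest.
For the rotor shaft subunits D and F, the direction depended on the scaling of the libraries. *vha-14* (D) was at 394 and 505 CPM in N2 and 499.5, 493 and 508 CPM in the mutant, and *vha-9* (F) was at 196 and 222 CPM in N2 and 226, 219 and 234 CPM in the mutant. The groups overlapped for both genes, with log2 fold changes of 0.15 (SE 0.25) and 0.11 (SE 0.24) that were not called. *vha-10*, for the other stalk subunit, G, had a log2 fold change of -0.47 (SE 0.24, adjusted p = 0.127) and was not called. It was nevertheless lower in each mutant library than in either N2 library, and 4 of the 14 alternatives called it lower. The ratio of *vha-14* to *vha-13* counts, which needs no scaling between libraries, was 0.476 and 0.444 in N2 and 0.996, 1.50 and 0.990 in the mutant, and the ratio of *vha-9* to *vha-12* counts was 0.374 and 0.303 in N2 and between 0.706 and 0.939 in the mutant. Both ratios were higher in every mutant library, which largely restates the falls of *vha-13* and *vha-12*, as *vha-14* and *vha-9* were not called.

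Transcripts of the 2 genes for the regulatory H subunit moved in opposite directions. *vha-15* was at 423 and 541 CPM in N2 and 216, 189 and 208 CPM in the mutant, a 2.36-fold lower level (log2 fold change -1.24, SE 0.25, adjusted p = 0.00246, edgeR). *vha-18* was at 17.96 and 15.8 CPM in N2 and 80.5, 116 and 92.1 CPM in the mutant, a 5.69-fold higher level (log2 fold change 2.51, SE 0.30, adjusted p = 0.000160), which was the largest increase among the members. Neither gene's groups overlapped, and both calls held in each of the 14 alternatives. *vha-18* gave 4.08% and 2.84% of the counts of this pair in N2 but 27.2%, 37.9% and 30.7% in the mutant. The *vha-18* gene overlaps *F52E1.2* in the RefSeq annotation, and the counts of *F52E1.2* came to 7.20% of those of *vha-18* and did not pass the test (log2 fold change -0.47, SE 0.28). *vha-13* overlaps *Y49A3A.3*, which has 5.94% as many counts and rose (1.89, SE 0.29).

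**Figure D2:**
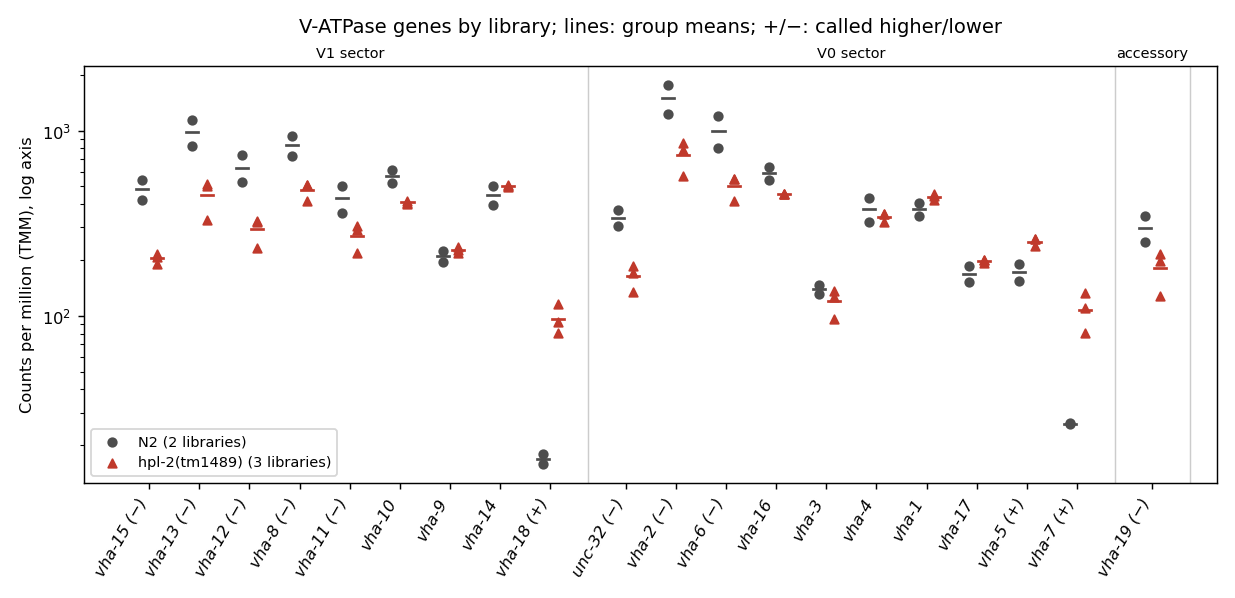
Transcript level in CPM after TMM normalization (y axis, log scale) of the 20 V-ATPase genes (x axis, by sector) in each N2 library (circles) and each *hpl-2*(*tm1489*) library (triangles), with lines at the group means and signs marking calls. The mutant points lie above both N2 points for *vha-18*, *vha-7* and *vha-5*, and below both for the 9 genes called lower, such as *vha-13* and *unc-32*. They also lie above both for *vha-1* and *vha-17* and below both for *vha-10* and *vha-16*, which were not called.

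In the V0 sector, the largest changes were among the 4 genes for the a subunit, the large membrane subunit whose isoforms place the pump in different membranes. Of the 10 V0 genes, 3 were called lower and 2 higher, against 27.6% and 33.9% of all tested genes. The median log2 fold change of the V0 genes was -0.18. *vha-6*, the a subunit of the apical intestinal membrane, was at 803 and 1190.5 CPM in N2 and 550.5, 414 and 547 CPM in the mutant, a 1.98-fold lower level (log2 fold change -0.98, SE 0.28, adjusted p = 0.0140, edgeR). *unc-32*, the a subunit required for normal movement and expressed in neurons, was at 304 and 372 CPM in N2 and 171, 135 and 186 CPM in the mutant, 2.06-fold lower (-1.04, SE 0.26, adjusted p = 0.00748). Both genes were lower in each of the 3 mutant libraries than in either N2 library.
*vha-7*, an a subunit known from the epidermis, went the other way. It was at 26.0 and 26.3 CPM in N2 and 109.7, 80.4 and 132 CPM in the mutant, 4.11-fold higher (log2 fold change 2.04, SE 0.31, adjusted p = 0.000531, edgeR). *vha-5*, an a subunit of the excretory canal and epidermis, was at 154 and 190.4 CPM in N2 and 237, 258 and 258 CPM in the mutant, a log2 fold change of 0.54 (SE 0.25, adjusted p = 0.0928). The rise of *vha-7* held in each alternative, whereas the call of *vha-5* was lost in 10 of 14, DESeq2 among them. *vha-5* overlaps *F35H10.10*, a gene with 35.1% as many counts, which fell (log2 fold change -2.67, SE 0.27), and whether the counting kept strands apart is not given in the sources used here.
The makeup of the a subunit counts differed between the strains. *vha-6* gave 62.4% and 66.9% of these counts in N2 and between 46.7% and 51.5% in the mutant, and *unc-32* gave 23.6% and 20.9% in N2 and between 15.2% and 16.6% in the mutant. *vha-5* gave 11.98% and 10.7% in N2 and 22.2%, 29.1% and 22.99% in the mutant. *vha-7* rose from 2.02% and 1.48% to 10.3%, 9.05% and 11.7%. The groups did not overlap for any of the 4 shares. These are shares of reads and not of molecules, since the genes differ in length.

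Of the c subunit genes, whose products form the proteolipid ring, *vha-2* was called lower and the others did not pass the test. *vha-2*, for the c subunit, was at 1232 and 1769 CPM in N2 and 782, 565 and 853 CPM in the mutant, with a log2 fold change of -1.03 (SE 0.29, adjusted p = 0.0129, edgeR). *vha-1*, another c subunit gene and the neighbor of *vha-2*, was at 344 and 406 CPM in N2 and 453, 422 and 441 CPM in the mutant, a log2 fold change of 0.23 (SE 0.25) that was not called although the groups did not overlap, and whose sign turned with upper quartile normalization (-0.094). *vha-3*, the last c subunit gene, was at 131 and 147 CPM in N2 and 126, 96.4 and 136 CPM in the mutant, and the groups overlapped. *vha-1* gave 20.2% and 17.5% of the c subunit counts in N2 and 33.3%, 38.97% and 30.8% in the mutant, and *vha-2* gave 72.2% and 76.2% in N2 and between 52.1% and 59.6% in the mutant.
*vha-2* and *vha-3* encode the same protein and are uncertain to the extent that reads from identical stretches map to both genes, because reads with more than one position were not counted. *vha-3* neighbors *vha-11*, and the ratio of their counts was 0.362 and 0.295 in N2 and between 0.435 and 0.448 in the mutant.
The remaining V0 genes did not pass the test. *vha-4* (subunit c″), *vha-16* (subunit d) and *vha-17* (subunit e) had log2 fold changes of -0.14 (SE 0.25), -0.38 (SE 0.24) and 0.23 (SE 0.25). *vha-17* overlaps *F49C12.14*, which has 15.6% as many counts and rose (1.23, SE 0.37). The accessory gene *vha-19*, the homolog of mammalian Ac45, which assists V-ATPase assembly and is required in oocytes, was at 249 and 348 CPM in N2 and 198, 128 and 217 CPM in the mutant. Its log2 fold change of -0.72 (SE 0.30) had an adjusted p of 0.0664 in edgeR's test and lost its call in 5 of the 14 alternatives.

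**Figure D3:**
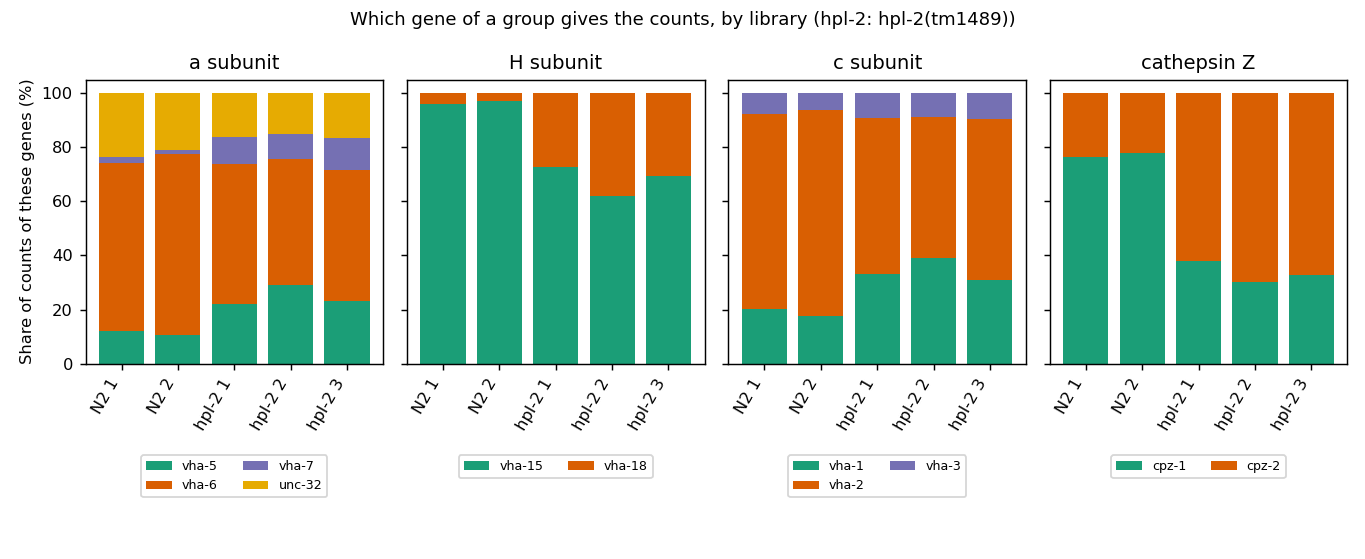
Share of the summed counts (y axis, percent) given by each gene of 4 groups of related members, the a subunit, H subunit and c subunit of the V-ATPase and cathepsin Z, with one bar per library (x axis). *vha-18*, *vha-7*, *vha-5*, *vha-1* and *cpz-2* take a larger part in each of the 3 *hpl-2*(*tm1489*) libraries than in either N2 library, and *cpz-2* goes from 23.6% and 22.1% to between 62.2% and 70.0%.

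Among the proteases, the largest decreases were in 1 gene each of the cathepsin Z, B and L types. Of the 14 tested protease genes, 7 were called lower and 1 higher, against 27.6% and 33.9% of all tested genes. The median log2 fold change of the protease genes was -0.72. *cpz-1*, a cathepsin Z required for molting, was at 1130.4 and 1253 CPM in N2 and 242, 218 and 177 CPM in *hpl-2*(*tm1489*), 5.61-fold lower (log2 fold change -2.49, SE 0.26, adjusted p = 7.49e-05, edgeR). *cpr-6*, a cathepsin B-like gene, was at 1732 and 2139 CPM in N2 and 545, 456 and 404 CPM in the mutant, 4.13-fold lower (-2.05, SE 0.26, adjusted p = 0.000215). *cpl-1*, the cathepsin L needed for yolk processing and embryonic development, was at 1607 and 2215 CPM in N2 and 625, 457 and 681 CPM in the mutant, 3.25-fold lower (-1.70, SE 0.28, adjusted p = 0.000882). For each of these genes the highest mutant library was well below the lowest N2 library, and the calls held in each of the 14 alternatives. The summed level of the 7 molting genes was 804 and 1162 CPM in N2 and between 47.8 and 85.2 CPM in the mutant, and that of the 6 vitellogenin genes was 6620.3 and 7255 CPM in N2 and between 808 and 1647 CPM in the mutant. The part of both lists in these decreases was not tested.
The other cathepsin Z gene did not pass the test. *cpz-2* was at 350 and 356 CPM in N2 and 398, 507 and 363 CPM in the mutant, a log2 fold change of 0.26 (SE 0.26, adjusted p = 0.425, edgeR). The ratio of *cpz-2* to *cpz-1* counts was 0.309 and 0.284 in N2 and 1.65, 2.33 and 2.05 in the mutant, a mean ratio 6.76 times as high. As *cpz-2* was not called, this ratio largely restates the fall of *cpz-1*.

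The other cathepsin B-like genes ranged from a rise to uncalled decreases. *cpr-3* was at 28.6 and 25.4 CPM in N2 and 64.7, 49.9 and 71.3 CPM in *hpl-2*(*tm1489*), 2.29-fold higher (log2 fold change 1.20, SE 0.29, adjusted p = 0.00619, edgeR). Its call held in every alternative. *cpr-1*, a gene of the gut, was at 399 and 535 CPM in N2 and 334, 208 and 430.2 CPM in the mutant (log2 fold change -0.53, SE 0.33). *cpr-4* and *cpr-5* had log2 fold changes of -0.26 (SE 0.31) and 0.41 (SE 0.35). The groups overlapped for these 3 genes, and in each of them *hpl-2*(*tm1489*) replicate 2 was the lowest mutant library.

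All 6 aspartyl protease genes had lower levels in each mutant library than in either N2 library, as did 5777 of all 17498 genes tested. Of the 6 genes, 4 were called lower and 0 higher, against 27.6% and 33.9% of all tested genes. The median log2 fold change of the 6 genes was -0.90. None of the 4 calls held in every alternative. *asp-1*, *asp-3* and *asp-5* each lost their call in 2 of the 14 alternatives, with the replicate block and without N2 replicate 2. *asp-2* lost its call in 1, the replicate block. *asp-1*, an abundant intestinal protease gene, was at 4085 and 5020.4 CPM in N2 and 2667, 1699 and 2438 CPM in the mutant, 2.01-fold lower (-1.01, SE 0.28, adjusted p = 0.0135, edgeR). *asp-2* was at 984 and 1364 CPM in N2 and 609, 496 and 499 CPM in the mutant, and *asp-5* at 1012 and 1302 CPM in N2 and 663, 483 and 595 CPM in the mutant. Their log2 fold changes were -1.13 (SE 0.26, adjusted p = 0.00529) and -0.996 (SE 0.26, adjusted p = 0.0103).
*asp-3* and *asp-4*, known for their part in the necrotic death of neurons, were lower by less. *asp-3* was at 1953 and 2781 CPM in N2 and 1502, 947 and 1596 CPM in the mutant (log2 fold change -0.81, SE 0.31, adjusted p = 0.0462). *asp-4* was at 625 and 737 CPM in N2 and 465, 559 and 434 CPM in the mutant (-0.49, SE 0.25, adjusted p = 0.131, edgeR). *asp-6* had a log2 fold change of -0.62 (SE 0.31, adjusted p = 0.114), and 8 of the 14 alternatives called it lower.

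**Figure D4:**
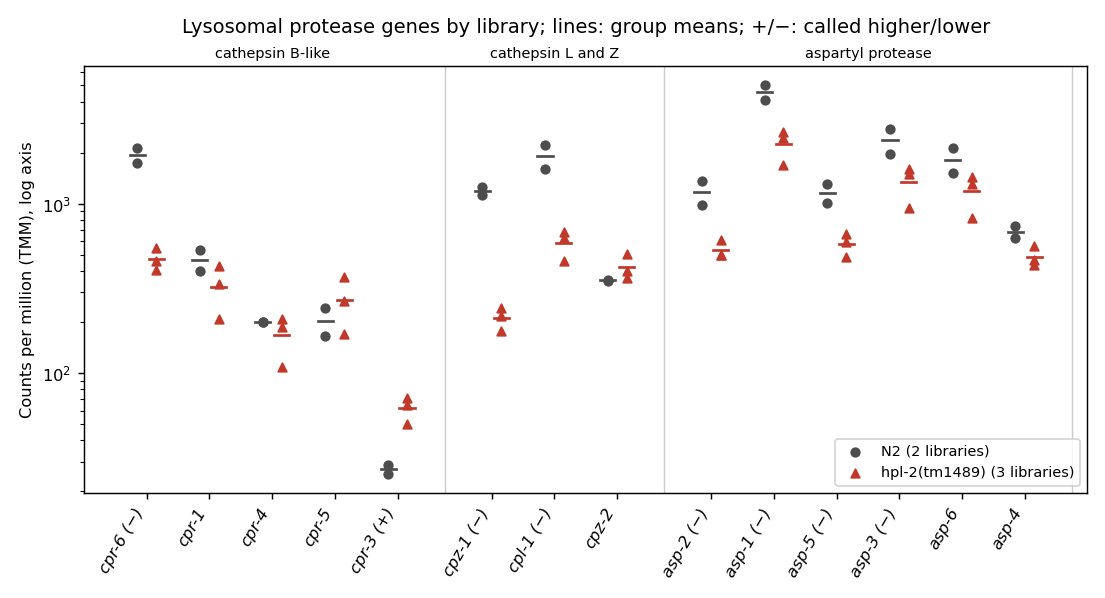
Transcript level in CPM after TMM normalization (y axis, log scale) of the 14 tested protease genes (x axis, by type) in each N2 library (circles) and each *hpl-2*(*tm1489*) library (triangles), with lines at the group means and signs marking calls. The gap between the strains is widest for *cpz-1*, *cpr-6* and *cpl-1*, every aspartyl protease gene lies lower in the mutant, and *cpr-3* is the one gene called higher.

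RefSeq gives names of the same classes to 15 further genes that the count table lists under sequence names, so they are not members, and this list was made after the values had been seen. Of these 15, 12 were tested, and 6 were called lower and 1 higher, against 27.6% and 33.9% of all tested genes. The median log2 fold change of the 12 was -1.09. *asp-14*, listed as *K10C2.3*, was at 557 and 826 CPM in N2 and 169.7, 151 and 133 CPM in the mutant, a log2 fold change of -2.19 (SE 0.27, adjusted p = 0.000193, edgeR). *vha-20*, listed as *R03E1.2*, was at 259.9 and 379 CPM in N2 and 163, 119.2 and 178 CPM in the mutant, a log2 fold change of -1.06 (SE 0.29, adjusted p = 0.0113). *cpr-9*, listed as *F57F5.1*, was at 785 and 988 CPM in N2 and 1076, 838 and 1284 CPM in the mutant, and its log2 fold change of 0.27 (SE 0.28) was not called. The gene called higher was *asp-11*, annotated as a pseudogene, with 92 and 11 counts in N2 and 357, 492 and 210 counts in the mutant.

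In lists of other lysosomal genes, genes were called in both directions, as over all tested genes, of which 27.6% were called lower and 33.9% higher. Of 16 genes for lysosomal membrane proteins and transporters, 5 were called lower and 4 higher, with a median log2 fold change of 0.13. *lmp-1*, the homolog of mammalian LAMP proteins, fell by 1.48 on the log2 scale (SE 0.31), while the related *lmp-2* had a log2 fold change of 1.49 (SE 0.35). *ncr-2*, a homolog of the NPC1 cholesterol transporter, was at -1.92 (SE 0.25). Of 24 tested genes for other lysosomal hydrolases, 7 were called lower and 5 higher, with a median of -0.30. The acid sphingomyelinase gene *asm-3* had 5865 and 4105 counts in N2 and 559, 375 and 485 counts in the mutant, a log2 fold change of -4.11 (SE 0.31), and the glucocerebrosidase genes *gba-1* and *gba-4* rose, with log2 fold changes of 1.08 (SE 0.26) and 1.03 (SE 0.28).
Of 22 genes for lysosome biogenesis and traffic, 7 were called higher and 5 lower, with a median of 0.33, and the share called higher was below that over all tested genes. The Vps33 homolog *vps-33.2* was at 1.83 (SE 0.31), *sand-1*, which acts in the switch from RAB-5 to RAB-7, at 1.68 (SE 0.31), and *rab-7* itself at -1.02 (SE 0.38).
A cysteine protease inhibitor and an assembly factor were in a list of 4 genes. *cpi-1*, which encodes a cystatin, had a log2 fold change of 1.28 (SE 0.36, adjusted p = 0.0139, edgeR), and its counts relative to those of *cpl-1* went from ratios of 0.0622 and 0.0492 in N2 to 0.268, 0.826 and 0.318 in the mutant. *rbc-1*, a rabconnectin homolog, a family that promotes assembly of the V1 and V0 sectors, had a log2 fold change of -2.51 (SE 0.30, adjusted p = 0.000161). The second cystatin, *cpi-2*, and *rbc-2* were at -0.22 (SE 0.24) and -0.30 (SE 0.34) and were not called.

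Of 13 regulators of lysosomal genes and mTORC1, 4 were called lower and 4 higher, with a median of -0.13, so neither share stood far from those over all tested genes (27.6% and 33.9%). *hlh-30*, the homolog of TFEB, an activator of lysosomal genes, was at 86.9 and 112 CPM in N2 and 30.6, 19.5 and 27.4 CPM in *hpl-2*(*tm1489*), 3.84-fold lower (log2 fold change -1.94, SE 0.29, adjusted p = 0.000509, edgeR). *mxl-3*, which opposes HLH-30 at lysosomal lipase genes, was at 27.5 and 22.6 CPM in N2 and 59.7, 41.01 and 43.6 CPM in the mutant (0.94, SE 0.30, adjusted p = 0.0224). *hlh-30* was lower and *mxl-3* higher in every mutant library than in either N2 library. The part of these genes in the members' results was not tested. *lmtr-2*, a subunit of the Ragulator complex that holds mTORC1 at the lysosome, had a log2 fold change of 1.41 (SE 0.28, adjusted p = 0.00216).

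Most intestinal markers fell beside the members. Of 12 such genes, 8 were called lower and the other 4 did not pass, with a median log2 fold change of -0.75. Over all tested genes, 27.6% were called lower and 33.9% higher. Of those that did not pass, *nhx-2* and *pho-1* were at 0.39 and 0.16, and *ifb-2* and *ifc-2* at -0.43 and -0.42. The summed level of the list was 3139 and 3409 CPM in N2 and 2407, 2045 and 2305 CPM in the mutant. The defining transcription factor genes *elt-2* and *elt-7* had log2 fold changes of -0.88 (SE 0.26) and -1.39 (SE 0.26). The part of the intestinal markers in the decreases of *vha-6*, *asp-1* and the other members was not tested. *vha-7* rose, whereas the call of *vha-5* as higher was lost in 10 of 14 alternatives. Beside *vha-5* and *vha-7*, 1 of 7 genes listed for the excretory canal cell was called higher, the aquaporin gene *aqp-8* at 3.98 (SE 0.32), and 1 lower, *pgp-12* at -1.34 (SE 0.25). Their summed level was 94.0 and 91.6 CPM in N2 and between 241 and 358 CPM in the mutant, and *aqp-8* alone went from 15.1 and 16.7 CPM to between 195 and 293 CPM. Of 6 epidermal genes 3 were called lower, the other 3 did not pass, and the summed level was 173 and 229.7 CPM in N2 and between 66.99 and 126 CPM in the mutant. No marker of these 3 lists was at 0 in every library, and the part of the last 2 lists in the levels of *vha-5* and *vha-7* was not tested.

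**Figure D5:**
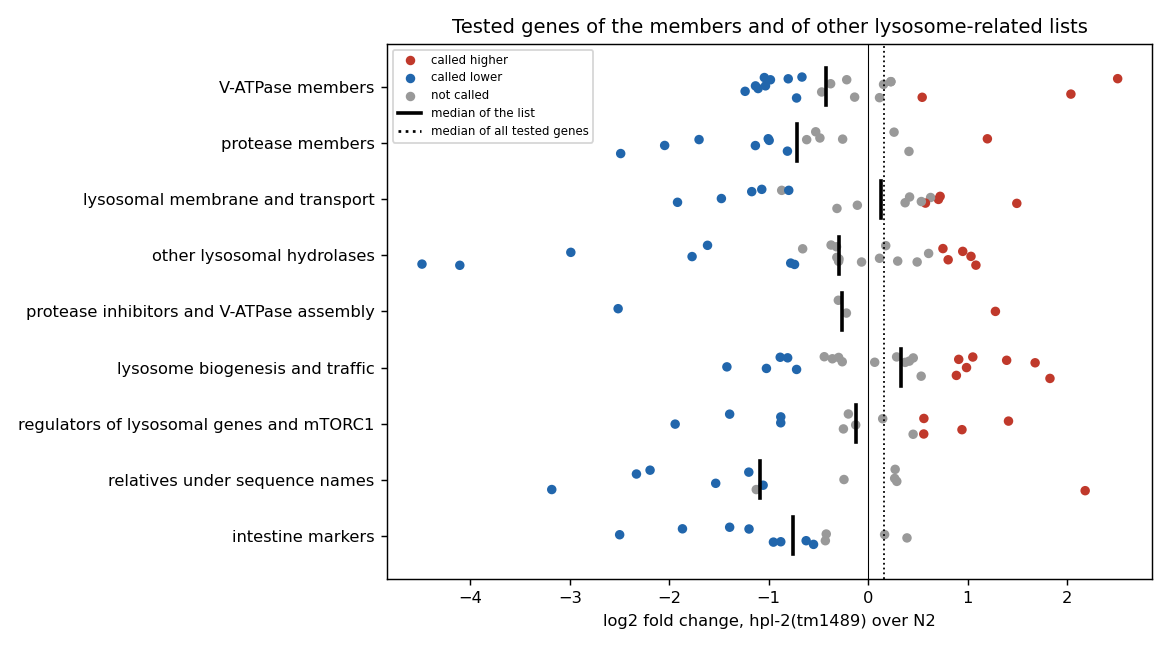
Log2 fold change of *hpl-2*(*tm1489*) over N2 (x axis) for each tested gene (points, colored by call) of the V-ATPase and protease members, the lysosome-related lists and the intestinal markers (y axis), with a bar at the median of each list and a dotted line at the median of all tested genes. The medians of the V-ATPase members at -0.42, the protease members at -0.72 and the intestinal markers at -0.75 lie left of the dotted line at 0.16. So do those of the relatives under sequence names (-1.09), other hydrolases (-0.30), inhibitors and assembly (-0.26), regulators (-0.13) and membrane and transport (0.13). Only that of lysosome biogenesis and traffic, at 0.33, lies right of it.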

How the data were processed

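The authors trimmed the reads of strand-specific poly(A) libraries, used TopHat2 2.0.14 for alignment to WS220, and Rsubread for counts per annotated gene from reads with a unique position. The deposited table holds these counts without normalization. The 5 columns were matched to samples by name. Genes were filtered with filterByExpr (minimum count 10) and TMM-normalized, and the robust quasi-likelihood test of edgeR 4.0.16 in R 4.3.3 was fitted with genotype as the group, with p-values adjusted over all 17498 genes tested. The standard error is the absolute log2 fold change divided by the square root of F. The members and lists were chosen with earlier results of these data known. Members with values for every library were those called, up to 5 in each role group by absolute log2 fold change with a mean of at least 100 counts, and the 4 a subunit genes. Others were needed for a ratio and were chosen after their values were seen. *cpr-1* and *asp-4* were given outside these rules. A planned choice by level per length was not made, as no coding lengths were used here. Genes are given without coordinates, because the RefSeq table (WBcel235), in which all 35 members had an entry, is of another build than WS220. It gave current names, overlaps, neighbors and gene spans. Replicates of 1 strain differed by far more than sampling noise (chi-square per degree of freedom at least 100 for each pair), so each library counted as 1 replicate. The p-values set the difference between strains against the spread between libraries of a strain. With 3 against 2 libraries there are 10 orderings, so exact tests of single values were not used. On counts simulated from these libraries, 17218 genes were tested, and the test recovered 194 of 200 genes changed by 2 on the log2 scale. Of the genes it called, 14.5% were ones left unchanged, above the nominal 10%. Far fewer genes were changed there than were called in the data, and most called members changed by less than 2. These rates therefore do not carry over to the members. Alternatives were DESeq2 1.42.0, other scalings, no filter, an adjusted p under 0.05, a replicate block and each library left out. Removal of the trend with gene span and of the most abundant gene were added after the data were seen. ChIP-seq, J2 RIP-seq and total RNA data were not analysed here.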

Additional observations from a re-analysis of the deposited data

How the results depend on the processing

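Of the 20 called members, 9 kept their call in each of the 14 alternatives (*vha-7*, *vha-13*, *vha-15*, *vha-18*, *unc-32*, *cpr-3*, *cpr-6*, *cpl-1* and *cpz-1*), and none of the 20 changed direction in any of them. When 1 *hpl-2*(*tm1489*) library was left out, the members called lower ran from 17 (without replicate 1) to 20 (without replicate 2). In the same fits, 24.8% and 31.9% of all tested genes were called lower. Members called higher were 3 without replicate 1 and 5 without replicate 2, against 29.4% and 33.9% of all tested genes. All tested genes called ran from 9335 to 11254 when a mutant library was left out. Without N2 replicate 2, fewer members were called lower, as given above. Over the fits that left out any single library, the V-ATPase median ran from -0.53 to -0.29. The cathepsin B-like median ran from -0.46 to -0.12 and the aspartyl protease median from -1.09 to -0.66. Scaling moved the medians: the median over the whole table was 0.16 after TMM, 0.41 by library size alone and -0.16 by upper quartile normalization. The last of these moved the V-ATPase median to -0.74 and the aspartyl protease median to -1.24, with 23 members called lower (against 35.0% of all tested genes), and library size alone moved the V-ATPase median to -0.16, with 7 members called higher (against 38.5% of all tested genes). Uncalled values near 0 changed sign, without a call. With upper quartile normalization these were *vha-9* (-0.21), *vha-14* (-0.16), *vha-1* (-0.094), *vha-17* (-0.091) and *cpz-2* (-0.044), by library size alone *vha-4* (0.14) and *vha-3* (0.034), with the gene span trend removed *vha-9* (-0.40), *vha-14* (-0.011), *vha-1* (-0.36) and *vha-17* (-0.26), and, over the fits that left out a library, *vha-14* (from -0.0053 to 0.35) and *vha-4* (from -0.32 to 0.098). The replicate block left 8 members called lower (against 19.9% of all tested genes) and 3 higher (against 25.2%) among 7879 genes called. The deviations of same-numbered libraries from their strain mean correlated at -0.17 and -0.26. The deviations of the 2 N2 libraries mirror each other, so these values cannot decide whether same-numbered libraries were handled together. What caused the differences between alternatives was not tested. The number of libraries, 2 of them N2, limits these comparisons more than depth, as each tested member averaged at least 4822 counts.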
